A study of Mus musculus with 12 samples.

Results

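This account follows 9 genes of blood clotting at the cell surface and of plasminogen activation, of the 57186 genes in the count table, in mouse pancreatic tumor cells with and without recombinant DKK3 (rDKK3). The genes were taken by name: the tissue factor gene F3, its inhibitor gene Tfpi, the thrombomodulin gene Thbd, the plasminogen activator genes Plau and Plat, the urokinase receptor gene Plaur, the activator inhibitor genes Serpine2 and Serpinb2, and the protease-activated receptor gene F2rl1. They were picked after their response to rDKK3 in these libraries was known. The fits and calls given for them below therefore serve as a description and not as a test of them.

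The RNA came from 3 cell lines, labelled DDKC_9750, DDKC_9790 and DDKC_9804, that were each isolated from a tumor of a DDKC mouse at the survival endpoint. DDKC mice are homozygous in all tissues for a Dkk3 knockout allele (Dkk3-/-), which removes exon 2 and with it the secreted protein but leaves the start site of an intracellular form, Dkk3b. They also carry Ptf1aCre/+, a Cre driven by the pancreatic gene Ptf1a that switches on a conditional oncogene in the pancreas. Every group shares this genotype, and the only labelled difference is that the cells received either no treatment or rDKK3, for which the sources do not name the concentration and the time used for the RNA samples. Each line and condition had 2 libraries, 12 in all, which are called here the lower-numbered and the higher-numbered library.

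Library totals ran from 7520741 to 24541083 counts in untreated and from 3822987 to 11567095 counts in rDKK3 libraries, so the treated samples were the shallower ones. The Dkk3 gene as a whole had 0 counts in all libraries except the higher-numbered rDKK3 library of line DDKC_9750, which had 1 count. In a check of the libraries, each gene was allowed its own shift between lower- and higher-numbered libraries, the same in every line and condition. The 2 libraries of a line and condition then agreed within counting noise (deviance per degree of freedom 0.78, averaged over 12979 genes). They were summed to 6 samples, and the cell line (n = 3) was taken as the replicate. Without the shift the deviance was 6.44. Nothing in the labels says that the 2 libraries came from separate cultures, or that treated and untreated cultures of a line were repeated, so the standard errors and p-values measure only the spread between these samples, part of which may be technical. The epithelial genes Epcam, Krt8, Krt18, Krt19 and Cdh1 summed to between 4537 and 9127 CPM (counts scaled to a common library size) in untreated and between 3521 and 7469 CPM in rDKK3 samples, with Epcam contributing at most 2.05 CPM. Within each of the 3 lines this sum was lower with rDKK3, as F3, Plat and F2rl1 were, and so were Krt8, Krt18 and Krt19 one by one (Krt19 at 1161 and 788 CPM in DDKC_9750, 2074 and 1386 in DDKC_9790 and 1506 and 1068 in DDKC_9804), while Cdh1 was higher in DDKC_9750 and DDKC_9804. The 6 endothelial markers summed to between 1.40 and 15.3 CPM untreated and between 0.975 and 17.5 CPM with rDKK3, nearly all of it Kdr, and Erg was at 0. Platelet markers (4 genes) summed to 1.83 to 2.79 CPM untreated and 2.14 to 5.46 CPM with rDKK3, higher with rDKK3 within each line, and the leukocyte genes Adgre1, Lyz2 and Cd3e had no count in any library. Csf1r, at up to 10.3 CPM, made up nearly all of the leukocyte sum of 5.88 to 7.76 CPM untreated and 7.41 to 10.3 CPM with rDKK3. The fibroblast sum (6 genes) was 7.28 to 12.9 CPM untreated and 5.75 to 11.6 CPM with rDKK3, and the acinar sum (4 genes, nearly all of it Cela1, with Cpa1, Ptf1a and Pnlip at 0) was 0.40 to 11.8 CPM untreated and 0.575 to 10.8 CPM with rDKK3. The part of these genes in the results that follow was not tested. In such bulk RNA, fewer cells that express a gene and less of its RNA per cell cannot be told apart.

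Tissue factor is a membrane protein that binds coagulation factor VII and starts the extrinsic clotting cascade, and it is a known product of pancreatic cancer cells. Tissue factor pathway inhibitor blocks that complex, while thrombomodulin on the cell surface turns thrombin from a clotting enzyme into an activator of protein C. Urokinase (Plau), bound to its receptor (Plaur), and tissue-type plasminogen activator (Plat) convert plasminogen into plasmin, which dissolves fibrin and degrades matrix, and serpins hold both activators in check. F2rl1 encodes the protease-activated receptor PAR2, which is cleaved by factor VII bound to tissue factor, by factor X and by several trypsin-like proteases, and which signals into the cell.

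The promoter windows of 5 of the 9 genes could be matched in the RefSeq table of the GRCm38.p6 build (F3, Plaur, Serpinb2, Serpine2 and Tfpi), and the 4 others were Thbd, Plau, Plat and F2rl1. A window runs from 250 bases before to 50 bases after the transcription start. Positions below are those of GRCm39, the build of the count table, and come from an exact and unique match of each window to that genome. The windows of F3, which was lower with rDKK3 in all 3 lines, and of Plaur, whose direction differed between lines, are shown 5′ to 3′. Capitals mark matches to the letters TGANTCA, the AP-1 motif bound by Fos and Jun proteins, which reads the same pattern on both strands. The F3 window lies on the plus strand at chr3:121516936-121517235 and the Plaur window on the plus strand at chr7:24161658-24161957.
F3: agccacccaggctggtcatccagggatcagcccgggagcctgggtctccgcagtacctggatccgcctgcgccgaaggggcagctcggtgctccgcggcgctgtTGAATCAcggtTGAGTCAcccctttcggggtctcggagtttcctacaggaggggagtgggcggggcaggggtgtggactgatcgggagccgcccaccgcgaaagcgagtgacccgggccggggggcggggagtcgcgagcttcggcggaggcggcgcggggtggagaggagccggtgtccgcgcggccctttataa
Plaur: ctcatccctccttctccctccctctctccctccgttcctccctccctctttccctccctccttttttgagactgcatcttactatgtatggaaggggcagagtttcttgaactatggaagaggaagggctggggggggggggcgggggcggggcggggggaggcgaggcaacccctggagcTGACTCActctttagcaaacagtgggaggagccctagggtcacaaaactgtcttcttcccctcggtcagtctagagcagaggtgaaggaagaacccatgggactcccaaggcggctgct

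The F3 window held 2 matches, TGAATCA beginning 146 bases and TGAGTCA beginning 135 bases before the start. Of all 32851 mouse promoter windows of this length, 7.81% held TGANTCA at least once and 0.46% held it at least 2 times. The Plaur window held TGACTCA beginning 69 bases before its start. Serpinb2 had TGAATCA, beginning 94 bases before the start in one of its overlapping windows and 181 bases in the other, and no match was found in the Serpine2 and Tfpi windows. The GC box GGGCGG, searched on both strands, occurred 3 times in the F3 window, 3 times in the Plaur window 6 times in the Serpine2 window and 1 time in each of the 2 Tfpi windows, but not in those of Serpinb2. Of all windows 35.7% held it, and 19.5% held it at least 2 times. These are matches of letters and do not show that a factor was bound.

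Across the 9 genes, F3, Plat and F2rl1 were lower with rDKK3 in all 3 lines, Plau and Plaur were lower in lines DDKC_9750 and DDKC_9790 and higher in line DDKC_9804, and Thbd was 16.0-fold higher in line DDKC_9804, with overlapping libraries in the others. Serpine2 was expressed at a substantial level in line DDKC_9804 and was lower there with rDKK3. Tfpi was above the detection floor of 3 counts in both conditions in line DDKC_9804 only, and Serpinb2 had at most 6 counts in any sample. Over the 7 genes that passed the filter on low counts the median log2 fold change was -0.60, with 6 of 7 below 0, against a median of -0.01 over all 15214 genes tested, of which 51.0% were below 0. Passing this filter requires expression in some of the samples, and the genes were picked for their response, so these counts are given only as a description.

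**Figure D1:**
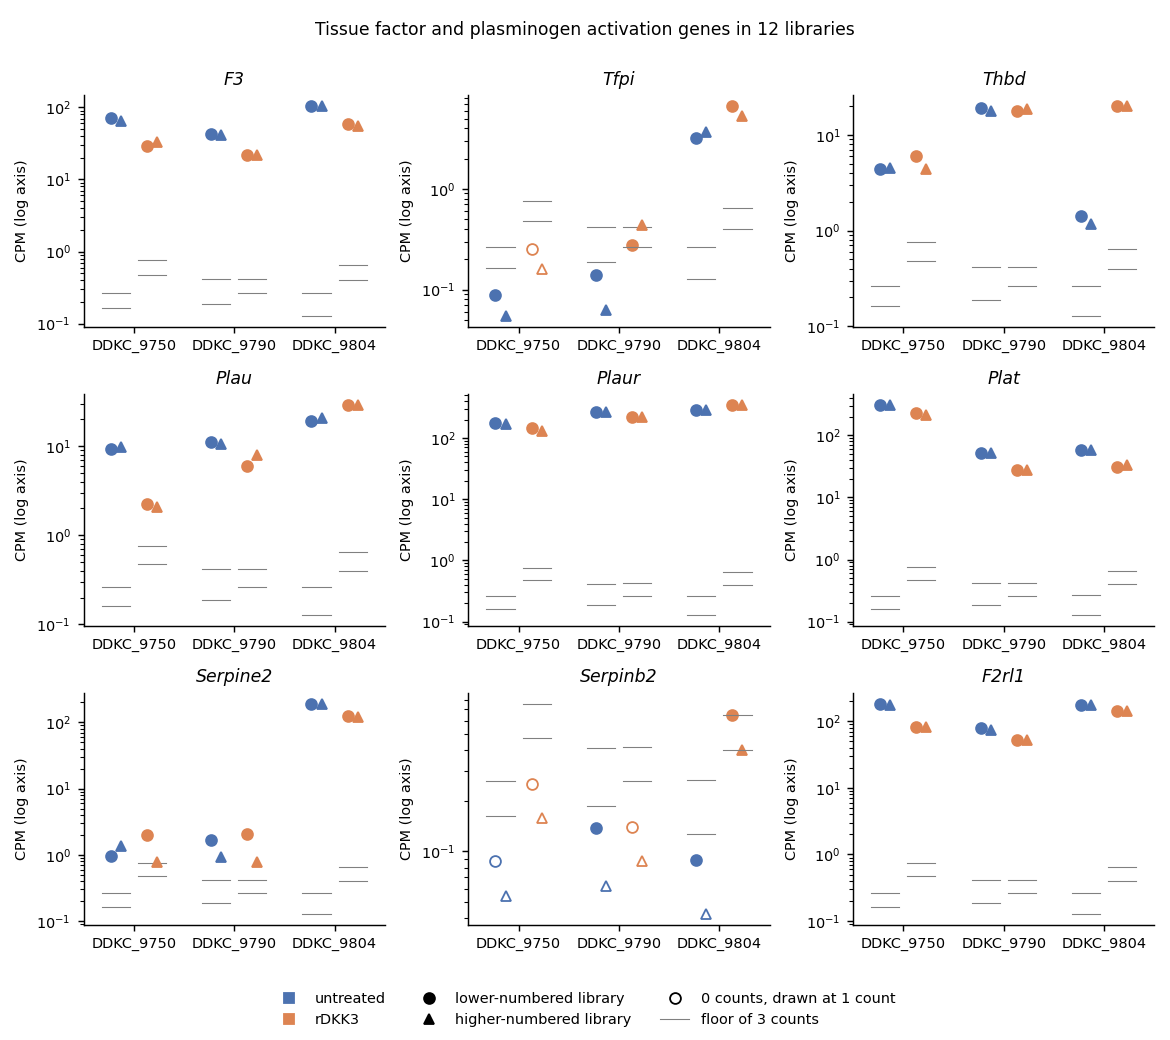
Level in CPM of the 9 genes in each of the 12 libraries (log axis), by line and condition, with circles for the lower-numbered and triangles for the higher-numbered library, grey lines at the level of 3 counts in each of the 2 libraries, and open symbols for 0 counts drawn at the level of 1 count. F3, Plat and F2rl1 sit lower in both rDKK3 libraries of each of the 3 lines, and Thbd in line DDKC_9804 is at most at 1.42 CPM untreated and at least at 20.1 CPM with rDKK3.

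F3 (ENSMUSG00000028128.14, chr3:121517186-121528697, plus strand, GRCm39) was at 70.6 and 65.2 CPM in the lower- and higher-numbered untreated libraries of line DDKC_9750, and at 28.7 and 33.2 CPM in its rDKK3 libraries. In line DDKC_9790 it was at 42.5 and 41.3 CPM untreated and at 22.0 and 21.9 CPM with rDKK3, and in line DDKC_9804 at 105 and 103 CPM untreated and at 58.7 and 55.1 CPM with rDKK3. Treated and untreated libraries therefore did not overlap within any line, while the treated level of line DDKC_9804 lay above the untreated level of line DDKC_9790. The mean over lines was 70.7 ± 31.1 CPM (SD, n = 3) untreated and 36.7 ± 17.7 CPM with rDKK3. In the fit over the 6 samples, with the line as a block, the log2 fold change was -0.96 (standard error 0.11), a level 1.94-fold lower. By line it was -1.09 in DDKC_9750, -0.92 in DDKC_9790 and -0.88 in DDKC_9804, the most even response among the 7 genes, with an SD of 0.11 between lines. Among all genes tested 1.52% had a log2 fold change below that of F3.

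F2rl1 (ENSMUSG00000021678.10, chr13:95648240-95661735, minus strand), the PAR2 gene, was at 183 and 175 CPM in the untreated and at 83.0 and 80.7 CPM in the rDKK3 libraries of line DDKC_9750. It was at 78.3 and 74.1 CPM untreated against 51.6 and 52.5 CPM with rDKK3 in line DDKC_9790. The difference was smallest in line DDKC_9804, with 178 CPM in each untreated library and 142 and 144 CPM with rDKK3. No line had overlapping libraries, but the size of the difference was graded over the lines, with log2 fold changes of -1.11 (95% counting interval -1.22 to -1.01) in DDKC_9750, -0.53 (-0.64 to -0.41) in DDKC_9790 and -0.32 (-0.39 to -0.24) in DDKC_9804. These intervals cover counting error only, and no use of molecular identifiers is given in the sources used here. The fitted log2 fold change was -0.65 (standard error 0.18), and the mean went from 143 ± 59.0 to 92.4 ± 46.3 CPM (SD, n = 3). The receptor for thrombin, F2r, which belongs to the same family and was at 339 ± 142 CPM untreated, had log2 fold changes of -0.67, 0.16 and 0.20 in the 3 lines in the same order.

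Thbd (ENSMUSG00000074743.5, chr2:148246386-148250108, minus strand, a gene of 1 exon) was at 1.42 and 1.18 CPM in the untreated libraries of line DDKC_9804 and at 20.1 and 20.2 CPM in its rDKK3 libraries. The summed counts of 44 and 245 gave a ratio of 16.0 (counting interval 11.6 to 22.6). In line DDKC_9750 the libraries overlapped, at 4.46 and 4.56 CPM untreated and 6.04 and 4.43 CPM with rDKK3, and in line DDKC_9790 they also overlapped, at 19.0 and 17.8 CPM untreated and 18.1 and 18.6 CPM with rDKK3. The treated level of line DDKC_9804 was thus close to the level that line DDKC_9790 had in both conditions. The fitted log2 fold change of 1.23 had a standard error of 0.87, and without line DDKC_9804 the fit gave 0.09. Tfpi (ENSMUSG00000027082.16, chr2:84263199-84307119, minus strand), whose product inhibits the tissue factor complex, had summed counts of 2 untreated and 0 with rDKK3 in line DDKC_9750, and 2 and 7 in line DDKC_9790, where the ratio of 4.40 had a counting interval of 0.838 to 43.4. In line DDKC_9804 it was at 3.19 and 3.72 CPM untreated and at 6.69 and 5.32 CPM with rDKK3, a ratio of 1.65 (1.21 to 2.22) on 124 and 71 counts. It did not pass the filter of the fit over 6 samples.

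Plau (ENSMUSG00000021822.4, chr14:20886728-20893453, plus strand), the urokinase gene, was at 9.27 and 9.82 CPM untreated and at 2.26 and 2.06 CPM with rDKK3 in line DDKC_9750, a level 4.46-fold lower on 287 and 22 counts. In line DDKC_9790 it was at 11.1 and 10.6 CPM untreated and at 6.02 and 8.04 CPM with rDKK3. In line DDKC_9804 the order was the opposite, with 19.3 and 20.7 CPM untreated and 29.1 and 29.0 CPM with rDKK3. The libraries of the conditions did not overlap in any line, and the log2 fold changes were -2.16 (-2.86 to -1.53), -0.55 (-0.87 to -0.25) and 0.52 (0.33 to 0.71). The mean over lines was 13.5 ± 5.85 CPM untreated and 12.8 ± 14.3 CPM with rDKK3 (SD, n = 3), and the fitted change of -0.60 had a standard error of 0.50 and became 0.02 without line DDKC_9750. The line with the most Plau before treatment was the one in which it was higher after treatment.

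Plaur (ENSMUSG00000046223.11, chr7:24161909-24175393, plus strand), the urokinase receptor gene, differed in the same directions as Plau by smaller amounts. Line DDKC_9750 had 176 and 171 CPM untreated and 145 and 132 CPM with rDKK3, line DDKC_9790 had 264 and 263 CPM untreated and 221 and 217 CPM with rDKK3, and line DDKC_9804 had 291 and 282 CPM untreated and 348 and 341 CPM with rDKK3. Again no libraries overlapped within a line. The log2 fold changes were -0.33 (-0.41 to -0.24), -0.26 (-0.32 to -0.20) and 0.27 (0.22 to 0.32), and the fit over lines gave -0.11 (standard error 0.16), or 0.01 without line DDKC_9750. Over the 6 samples the log2 CPM of Plau and Plaur had a Pearson correlation of 0.92 and that of F3 and F2rl1 one of 0.94, whereas Plaur and Plat had one of -0.80. These correlations are over samples that share lines and are given as a description.

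Plat (ENSMUSG00000031538.7, chr8:23247743-23272860, plus strand), the gene of tissue-type plasminogen activator, was at 310 and 306 CPM in the untreated libraries of line DDKC_9750 and at 229 and 216 CPM with rDKK3. It was at 52.3 and 51.7 CPM untreated and at 27.7 and 27.3 CPM with rDKK3 in line DDKC_9790, and at 57.8 and 58.4 CPM untreated and 30.4 and 33.8 CPM with rDKK3 in line DDKC_9804. No libraries overlapped within a line, and the log2 fold changes were -0.47 (-0.53 to -0.40), -0.91 (-1.06 to -0.76) and -0.84 (-1.0 to -0.68). Line DDKC_9750, with the highest level, had the smallest relative difference, and its treated libraries stayed far above the untreated libraries of the other lines. The mean of 139 ± 145 CPM untreated and 93.9 ± 111 CPM with rDKK3 (SD, n = 3) spans lines of very different level, and the difference within lines had a fitted log2 fold change of -0.74 (standard error 0.13).

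**Figure D2:**
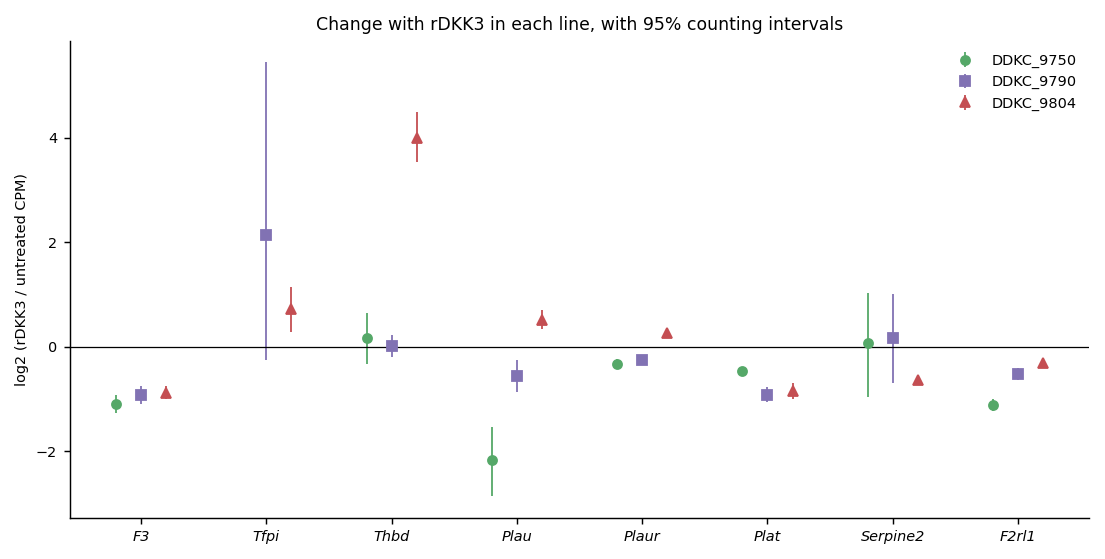
Log2 ratio of rDKK3 to untreated CPM in each of the 3 lines for 8 of the genes, from the summed counts, with bars for the 95% counting interval; ratios with a summed count of 0 or with both counts at or under 3 are not drawn, and Serpinb2 is left out. F3, Plat and F2rl1 lie below 0 in all 3 lines, and line DDKC_9804 lies above 0 for Tfpi, Thbd, Plau and Plaur.

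Serpine2 (ENSMUSG00000026249.11, chr1:79771914-79838897, minus strand) encodes protease nexin-1, which inhibits thrombin, urokinase and tissue-type plasminogen activator. It was at 188 and 191 CPM in the untreated and 125 and 120 CPM in the rDKK3 libraries of line DDKC_9804. In lines DDKC_9750 and DDKC_9790 it ranged from 0.787 to 2.10 CPM over the 8 libraries, which overlapped between conditions. The untreated level of line DDKC_9804 was 163-fold that of the lowest line, against ratios of 1.65 to 14.5 between the highest and the lowest line for the other 6 genes that passed the filter. The log2 fold change was -0.64 (-0.72 to -0.56) in line DDKC_9804, and 0.08 and 0.16 in lines DDKC_9750 and DDKC_9790 with counting intervals that include 0. The fit over lines gave -0.30 (standard error 0.22), or 0.12 without line DDKC_9804. Its repeat libraries differed by more than those of the other 6 genes (deviance of 2.44 per degree of freedom, against 0.366 to 0.768). Serpinb2 (ENSMUSG00000062345.11, chr1:107439153-107463208, plus strand), the gene of plasminogen activator inhibitor 2, had 8 counts over all 12 libraries, 6 of them in the rDKK3 libraries of line DDKC_9804 and 1 in an untreated library of that line. Their ratio of 17.3 had a counting interval of 2.10 to 795.

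Levels of different genes were compared per kilobase of the canonical transcript. Untreated, Plaur was the highest of the 9 genes in line DDKC_9790 (171 CPM per kilobase) and in line DDKC_9804 (185), while in line DDKC_9750 Plat (118) was above Plaur (112). F2rl1 followed at 62.7, 26.7 and 63.0 CPM per kilobase in lines DDKC_9750, DDKC_9790 and DDKC_9804, and F3 at 33.6, 20.9 and 51.8. Serpine2 was second to Plaur in line DDKC_9804, at 85.8 CPM per kilobase. Urokinase RNA was much scarcer than that of its receptor, at 4.08, 4.55 and 8.61 CPM per kilobase in the same order of lines. With rDKK3 Plaur was the highest in all 3 lines, but its libraries in line DDKC_9750 (85.8 and 94.1 CPM per kilobase) overlapped those of Plat (83.2 and 88.5). In line DDKC_9804 with rDKK3 the libraries of Plau (12.4 CPM per kilobase each) lay between those of Plat (11.7 and 13), so the order of this pair is not resolved. Tfpi and Serpinb2 were at most at 2.72 and 0.250 CPM per kilobase in any sample.

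**Figure D3:**
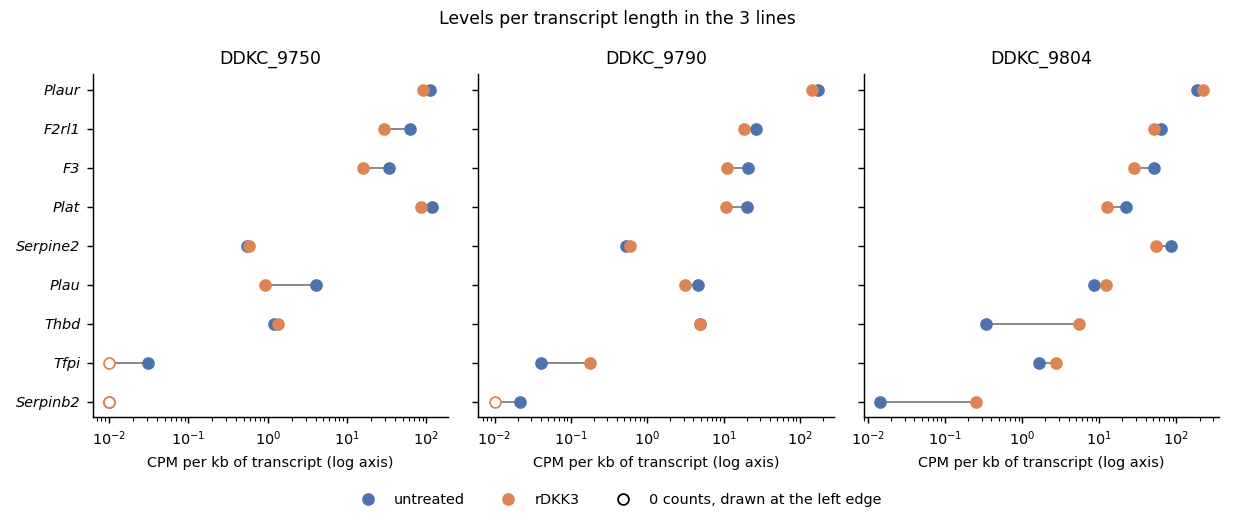
Level of each gene in CPM per kilobase of canonical transcript (log axis) in the untreated and rDKK3 samples of each line, 2 libraries summed, with open symbols at the left edge for 0 counts. Plaur, F2rl1 and F3 are among the 4 highest genes of every sample, joined by Plat in lines DDKC_9750 and DDKC_9790 and by Serpine2 in line DDKC_9804, and Thbd in line DDKC_9804 is at 0.337 untreated and 5.41 CPM per kilobase with rDKK3.

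The contrast of rDKK3 with untreated cells was the one the genes were chosen on, so the following counts are not a result about them. At an adjusted p under 0.05 in edgeR on the 6 summed samples, 1 gene of 15214 was called (0.00657% in either direction and 0.00657% higher, 0% lower), and it was Lcn2, a secreted lipocalin, with a log2 fold change of 6.30 (standard error 0.24, edgeR adjusted p = 0.0131). None of the 7 genes tested was called, and 3 of them (F3, Plat and F2rl1) had an unadjusted p under 0.05, as had 1262 genes in all (8.29%). With the 12 libraries entered as separate replicates, edgeR called 3 of 8 of the genes, F3, Plat and F2rl1, all lower, in a fit that called 18.1% of genes (7.95% higher and 10.1% lower). DESeq2 on the summed samples called F3 and Plat, both lower, in a fit that called 96 of the 13149 genes with an adjusted p (0.73%, and 0.525% lower). Without the filter on low counts edgeR also called F3 and Plat, 2 of the 9 genes, among 90 of 29823 genes called (0.302%, and 0.164% lower). Both rDKK3 libraries were below both untreated libraries in all 3 lines for F3, Plat and F2rl1 (3 of 8, or 37.5%), where 8.51% of all genes had that pattern, and none of the 8 was above in all 3 lines, where 5.33% of all genes were. Within line DDKC_9750, 6 of 8 were lower and 0 higher, where 35.2% of all genes were lower and 32.5% higher. The 6 include Tfpi, which had 1 count in each untreated and 0 in each rDKK3 library, all under the floor of 3 counts. Within line DDKC_9790, 5 were lower and 1, Tfpi on summed counts of 2 and 7, higher, where 31.2% of all genes were lower and 30.4% higher. Within line DDKC_9804, 4 were lower (F3, Plat, Serpine2 and F2rl1) and 4 higher (Tfpi, Thbd, Plau and Plaur), where 39.3% were lower and 32% higher.

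The rest of the pathway was taken from a list of 55 genes of coagulation, anticoagulation, protease-activated receptors, plasminogen and surface proteases. Of these, 24 passed the filter of the fit on summed samples. None was called by edgeR there, 6 had an unadjusted p under 0.05 (8.29% of all genes had), and the median log2 fold change was -0.07, with 14 below and 10 above 0. DESeq2 called Serpini1 and Anxa2, where it called 0.73% of the genes with an adjusted p, and edgeR without the filter on low counts called Serpini1, where 0.302% of all genes were called. With the 12 libraries as separate replicates 9 of 25 were called (36.0%, against 18.1% of all genes), 4 higher and 5 lower. That fit counts the 2 libraries of a sample as independent although they agreed within counting noise, so its p-values are too small if the libraries repeat 1 culture. For each gene called there, the edgeR adjusted p over 12 libraries is followed by that on the 6 summed samples, which was 0.597 or more for all of them but Kng2, which was not tested there. Of the fits with 1 sample per line and condition, 12 were run, including those on the lower- or the higher-numbered libraries alone, which were not summed. Over these 12 the adjusted p-values of the same genes, Kng2 left out, ranged from 0.0365 (Anxa2, DESeq2) to 1. Serpini1 by edgeR without the filter was at 0.0388.

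Among the anticoagulant genes, 4 of 9 were tested. Proc, the gene of protein C, which thrombin cleaves while bound to thrombomodulin, was at 7.89 ± 8.88 CPM untreated and 3.48 ± 4.89 CPM with rDKK3 (SD, n = 3). Its log2 fold changes were -2.51, -0.99 and -1.59 in lines DDKC_9750, DDKC_9790 and DDKC_9804 (edgeR adjusted p = 0.0018 over 12 libraries and 0.597 summed). The rDKK3 samples of lines DDKC_9750 and DDKC_9804 held only 6 and 9 Proc counts, with counting intervals of -3.99 to -1.34 and -2.77 to -0.59. Procr, the endothelial protein C receptor gene, went from 61.6 ± 29.0 to 45.1 ± 27.4 CPM, with log2 fold changes of -1.19, -0.51 and -0.13 (edgeR adjusted p = 0.0165 over 12 libraries and 0.597 summed). Like F2rl1, Procr had its largest difference in line DDKC_9750 and its smallest in line DDKC_9804. Serpinc1, the antithrombin gene, was higher in the fit, with log2 fold changes of 0.43, 0.70 and 0.65 (edgeR adjusted p = 0.0152 over 12 libraries and 0.597 summed), at 4.18 ± 1.03 CPM untreated. In line DDKC_9750 its libraries overlapped between conditions (counting interval -0.03 to 0.88). There the lower-numbered libraries gave 0.97 and the higher-numbered ones -0.01. Pros1, the gene of the protein C cofactor protein S, had values of 0.34, -0.50 and -0.82 and was not called.

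Of the clotting factors and the proteins that modify or export them, 6 of 21 were tested on summed samples, and F7, F9, F10 and the fibrinogen genes Fga, Fgb and Fgg had at most 2 counts each over all libraries. F5, the gene of a cofactor of factor X, had log2 fold changes of 0.25, 0.24 and 0.38 (edgeR adjusted p = 0.00585 over 12 libraries and 0.622 summed). Its rDKK3 libraries did not overlap the untreated ones in any line. The counting intervals nevertheless included 0 in lines DDKC_9750 (-0.19 to 0.68) and DDKC_9790 (-0.30 to 0.77). Kng2, a kininogen gene, was called as well (log2 fold change 4.03, edgeR adjusted p = 0.00958), but all of its 40 counts came from line DDKC_9750, 5 untreated and 35 with rDKK3, and lines DDKC_9790 and DDKC_9804 had none. It is also a close copy of Kng1, and the reads of the pair may be divided between them. Ggcx, which carboxylates clotting factors, was at 56.4 CPM untreated and had log2 fold changes of 0.47, -0.07 and -0.26 in lines DDKC_9750, DDKC_9790 and DDKC_9804. Lman1 and Mcfd2, which export them, were at 201 and 86.1 CPM untreated and had values of 0.12, -0.20 and 0.11 and of 0.36, -0.28 and 0.04. The directions of these 3 genes differed between lines, and none was called.

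Among the genes of plasminogen binding and inhibition, 8 of 14 were tested. Anxa2 and S100a10, which together form a plasminogen and tissue-type plasminogen activator receptor at the cell surface, were lower in both rDKK3 libraries of every line. Anxa2 went from 2169 ± 391 to 1491 ± 150 CPM, with log2 fold changes of -0.55, -0.38 and -0.65 in lines DDKC_9750, DDKC_9790 and DDKC_9804 (edgeR adjusted p = 0.000274 over 12 libraries and 0.597 summed). S100a10 went from 301 ± 128 to 201 ± 66.4 CPM, with log2 fold changes of -0.18, -0.72 and -0.78 (edgeR adjusted p = 0.00214 over 12 libraries and 0.597 summed). Serpini1, the neuroserpin gene, whose product inhibits tissue-type plasminogen activator, was also lower, by 1.43, 0.89 and 3.20 on the log2 scale (edgeR adjusted p = 0.000987 over 12 libraries and 0.597 summed), although line DDKC_9790 had only 7 and 3 counts. Lrp1, an endocytic receptor that clears activator and inhibitor complexes, was higher in the fit (log2 fold change 0.38, edgeR adjusted p = 0.0240 over 12 libraries and 0.623 summed), with values of 0.50, -0.01 and 0.68 by line.

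The serpin genes Serpinb6a and Serpinb8 had log2 fold changes of -0.36, -0.27 and 0.14 and of 0.61, -0.38 and 0.02 in lines DDKC_9750, DDKC_9790 and DDKC_9804, and the plasminogen receptor gene Plgrkt had values of 0.07, 0.01 and -0.48. None of the 3 was called. Of the surface proteases and their inhibitors, 5 of 8 were tested and none was called. Tmprss2, a transmembrane serine protease gene, went from 74.0 to 169 CPM in line DDKC_9750 and from 31.0 to 19.4 CPM in line DDKC_9790. In line DDKC_9804 it went from 3.20 to 0.246 CPM, on 112 and 3 counts, the latter at the floor. Spint2, a Kunitz inhibitor of surface proteases, had log2 fold changes of 0.16, -0.29 and -0.65.

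**Figure D4:**
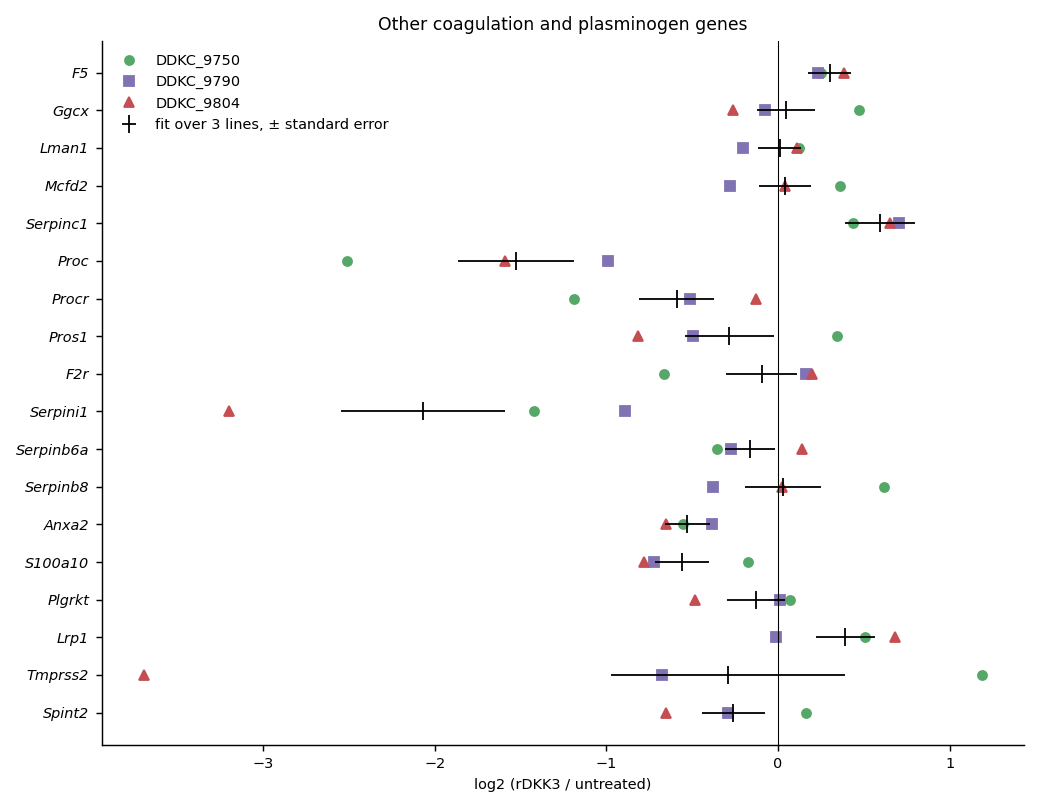
Log2 fold change of rDKK3 against untreated for the 18 genes of the wider pathway that are named in the text and were tested on summed samples, by line (coloured symbols) and in the fit over the 3 lines (black tick with its standard error). Proc, Procr, Serpini1, Anxa2 and S100a10 lie below 0 in all 3 lines, and F5 and Serpinc1 lie above 0 in all 3. Line DDKC_9804 stands apart for Tmprss2, with a treated sample at the floor of 3 counts.

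The genes most like F3 were sought by Pearson correlation of log2 CPM over the 6 summed samples, among 9876 genes with at least 10 CPM on average. They were Eif1ax (r = 0.99), Rfc5 (0.99), Tuba1a (0.98), Vkorc1l1 (0.98) and Eno3 (0.98), with fitted log2 fold changes from -0.80 for Tuba1a to -0.11 for Vkorc1l1. For Plau they were Cdc45 (0.99), Taf1b (0.99), Cenpi (0.99), Ncapg2 (0.98) and Gmfb (0.98), with fitted log2 fold changes from -0.32 for Cdc45 to -0.04 for Gmfb. With 6 samples from 3 lines, such values reflect both the levels of the lines and the treatment, and none of the 9 genes described here was eligible.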

How the data were processed

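RNA-seq of 12 libraries was analysed. Per the study's methods, paired reads were mapped by the authors with STAR 2.7.9a (GRCm39) and assigned by strand to GENCODE genes with GenomicAlignments. They deposited raw counts per gene, without normalization, and named DESeq2 1.38.0 for their tests, with no model formula. The 92 spike-in rows of the table, with 0 counts, were left out. Counts of the 2 libraries of a line and condition were summed. In the main test the line was a block, with treatment as the other term, in edgeR 4.0.16 (quasi-likelihood, TMM, filterByExpr, Benjamini-Hochberg, threshold 0.05; R 4.3.3). The pairing comes from the cell line in the labels. CPM used TMM library sizes, log2 CPM a prior count of 2. The floor was 3 counts, or 0.0856 to 0.292 CPM in the summed samples. Ratios within a line carry exact 95% binomial intervals. Alternatives were 12 separate libraries, with or without the number series, no line block, DESeq2 1.42.0, other scalings, no filter, each line left out, each number series alone, and thinning.

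The 9 genes and the wider list were chosen with earlier results of these data known. Besides the 9 genes, the text names genes of the wider list with a mean of at least 10 CPM or called in either edgeR fit, the 5 genes most correlated with F3 and with Plau, and Dkk3. An item of the wider list that this rule names is not reported here. Lcn2, the other marker genes and the clotting factor genes of low count were named after their values were seen. Gene coordinates are those given with the deposited counts. Transcript lengths and exon counts are from GENCODE for GRCm39, of a later release than the counts.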

Additional observations from a re-analysis of the deposited data

Results flagged for a closer look

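Plau had log2 fold changes of opposite sign in 2 lines, and the value of line DDKC_9804 minus that of line DDKC_9750 was 2.68. For Plaur the same difference was 0.60. In each case both rDKK3 libraries of line DDKC_9750 were lower and both of line DDKC_9804 higher than the untreated libraries. These differences between lines were not tested, since each line had a single summed sample per condition.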

How the results depend on the processing

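Over 13 alternatives the log2 fold change stayed below 0 for F3 (-1.0 to -0.89), Plat (-0.87 to -0.56) and F2rl1 (-0.82 to -0.42). That of Thbd ranged from 0.09 to 2.10, set by line DDKC_9804. Plau, Plaur and Serpine2 each crossed 0 when 1 line was left out, Plau (0.02) and Plaur (0.01) without line DDKC_9750 and Serpine2 (0.12) without line DDKC_9804. The count of genes called, 1 in the main fit, was 2744 with 12 separate libraries, 3124 with the number series added, 0 with no replicate block for the line, 96 by DESeq2, 90 without the filter, 0 after thinning, and 0 to 2 with a line left out. At an unadjusted p under 0.05 edgeR gave 106 genes with no block and 1145 after thinning. For the wider list, with 0 called, these counts were 9 with 12 libraries, 9 with the number series, 2 by DESeq2, 1 without the filter, and 0 with a line left out. Scaling to the library total, and the fits on the lower- or the higher-numbered libraries alone, were chosen after seeing the data. Depth limits Tfpi, Serpinb2, and Serpine2 outside line DDKC_9804, and 2 libraries per sample limit what any repeat shows.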
